A study of Mus musculus with 16 samples.

Results

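Axon guidance genes were measured in mouse striatum as 68 ligands and receptors among 19457 genes. The 68 are every protein-coding row of the count table whose symbol names a Slit or Robo, a netrin or a netrin receptor (Dcc, Neo1 and Unc5a to Unc5d), a semaphorin, plexin or neuropilin, or an ephrin or Eph receptor. The rule uses names and no measured value, and it was set with earlier results of these data known. They comprise 33 ligands and 35 receptors, with 7 genes in the Slit-Robo family, 9 in the netrin family, 31 in the semaphorin family and 21 in the ephrin-Eph family. All 68 passed the filter on low counts, among 18813 genes that did.

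RNA was sequenced from GS and WT mice at 4 stages, as 8 groups of 2 libraries that the labels call biological replicates, and p-values measure the spread between these samples. GS and WT striatum was either intact or taken 6 h, 3 d or 15 d after 0.8 µl of 500 mM ATP, a danger signal that damaged cells release, was injected into the striatum on one side. GS was read as LRRK2 G2019S, a change in a kinase gene linked to Parkinson disease, because the series title names that allele; the level of a gene cannot check a point mutation. Whether GS is a knock-in or an added copy, what promoter drives it, the mice's ages and sexes, and whether a library pools mice were not found in the sources used here. The intact groups carry no treatment label and no vehicle group was analysed here, so needle, fluid and ATP cannot be told apart in any comparison with intact striatum.

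Guidance cues are secreted or membrane-bound proteins that attract or repel growing axons through receptors on the growth cone. Slits act through Robo receptors, netrins through Dcc, neogenin and the Unc5 proteins, semaphorins through plexins, often with a neuropilin as co-receptor, and ephrins through the Eph receptor tyrosine kinases. In the adult brain many of them are still made by neurons and glia, several act at synapses, and class 3 semaphorins, Slits and ephrins are known from scar tissue after injury to the central nervous system. Neuropilins and class B plexins are also found on vessels and immune cells.

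Library totals ran from 49220578 to 63948110 counts, of which the 68 genes took 0.278 to 0.31%. All 11 measured markers of striatal projection neurons were present, and their summed level was 8356 to 11012 CPM (the count scaled to the TMM-adjusted library size) in the 4 intact libraries. Markers of cortical excitatory neurons were uneven among WT libraries: 9 of 10 were measured, and their sum was 216 CPM in WT intact replicate 1, 133 CPM in WT 6 h replicate 2 and 101 CPM in WT 15 d replicate 1, against 45 to 73.2 CPM in the other 13. Choroid plexus markers, 7 of 7 measured, summed to 790 CPM in GS intact replicate 1, 654 CPM in WT 15 d replicate 2 and 591 CPM in GS 6 h replicate 2, against 258 to 523 CPM elsewhere. Calls lost without the 3 WT libraries with most cortical marker RNA are given with their fold change without them.

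Upstream sequence is shown for 5 members that had different time courses (Nrp2, Epha2, Sema4a, Efna3 and Sema6b) and a window that overlaps no RefSeq gene. Each run is the 250 bases before an annotated start in RefSeq GRCm38.p6, written 5′ to 3′ on the gene's strand, with capitals for GC boxes (GGGCGG, searched on both strands, so CCGCCC also counts, and overlapping matches merge).
Nrp2, chr1:62703067-62703316, plus strand: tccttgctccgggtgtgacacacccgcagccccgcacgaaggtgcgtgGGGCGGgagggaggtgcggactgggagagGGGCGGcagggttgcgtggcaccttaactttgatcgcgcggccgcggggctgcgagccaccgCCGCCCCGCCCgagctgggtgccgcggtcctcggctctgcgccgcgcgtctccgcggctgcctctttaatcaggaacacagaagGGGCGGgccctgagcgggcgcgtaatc
Epha2, chr4:141300971-141301220, plus strand: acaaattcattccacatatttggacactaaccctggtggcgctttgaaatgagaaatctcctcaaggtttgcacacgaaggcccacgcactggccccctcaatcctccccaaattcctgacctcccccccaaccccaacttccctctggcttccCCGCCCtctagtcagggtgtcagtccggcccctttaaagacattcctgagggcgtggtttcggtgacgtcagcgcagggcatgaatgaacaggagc
Sema4a, chr3:88461183-88461432, minus strand: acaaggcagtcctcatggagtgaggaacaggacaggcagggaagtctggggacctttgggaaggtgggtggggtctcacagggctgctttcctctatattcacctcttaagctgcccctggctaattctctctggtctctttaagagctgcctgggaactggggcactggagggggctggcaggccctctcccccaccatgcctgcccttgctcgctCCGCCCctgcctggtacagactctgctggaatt
Efna3, chr3:89322940-89323189, minus strand: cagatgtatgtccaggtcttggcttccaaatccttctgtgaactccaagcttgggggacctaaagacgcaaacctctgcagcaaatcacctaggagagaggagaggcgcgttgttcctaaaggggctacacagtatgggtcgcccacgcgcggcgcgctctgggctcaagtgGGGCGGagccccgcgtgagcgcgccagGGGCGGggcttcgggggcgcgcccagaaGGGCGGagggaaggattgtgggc
Sema6b, chr17:56140344-56140593, minus strand: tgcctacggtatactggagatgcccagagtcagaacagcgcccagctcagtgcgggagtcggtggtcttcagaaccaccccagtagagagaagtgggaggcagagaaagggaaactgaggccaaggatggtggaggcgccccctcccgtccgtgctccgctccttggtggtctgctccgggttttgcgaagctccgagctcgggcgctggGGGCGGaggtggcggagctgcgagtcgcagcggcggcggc
Of the 68 members, 58 had at least 1 window of 250 bases before an annotated start, 74 windows in all, whether or not it overlapped a gene. A window clear of all RefSeq genes was found for 23 members. A GC box was found in 54 of the 74 (73%), compared with 51.3% of 17446 windows of genes in the count table and 32.7% of all 32851 windows. The AP-1 motif TGANTCA was found in 3 member windows (4.05%, against 4.71% of windows of genes in the table), and TATAAA, on either strand, in 2 (2.7%, against 7.35%). None of the 5 windows shown holds TGANTCA or TATAAA, but another window of Sema6b, not shown, holds TGANTCA. These letters are a description of the windows, and member windows were also richer in G and C, with a median of 64.4% against 58.8% for genes in the table.

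In intact striatum the guidance genes spanned a wide range of levels per kilobase of RefSeq exon. The highest were Efnb3, a membrane-anchored ephrin, at 40.1 CPM per kilobase, Sema7a, a semaphorin with a lipid anchor, at 40 ± 5.92 (SD, n = 4) and Epha4, an Eph receptor that binds both ephrin classes, at 37.5. The ranges of these 3 overlapped over the 4 intact libraries. Sema6b followed at 27 CPM per kilobase, then Ephb6, an Eph receptor without kinase activity, at 22.7, Robo2 at 20, Plxnd1, the receptor of Sema3e, at 19.1 and Unc5a at 18.9. At the low end stood Sema3b at 0.173 ± 0.0927, Epha1 at 0.182 ± 0.0222 and Epha2 at 0.261 ± 0.0292 CPM per kilobase (SD, n = 4 each). The lowest count behind any Sema3b value was 19 reads, so its levels rest on far fewer reads than those of Sema7a, whose lowest count was 3855.

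**Figure D1:**
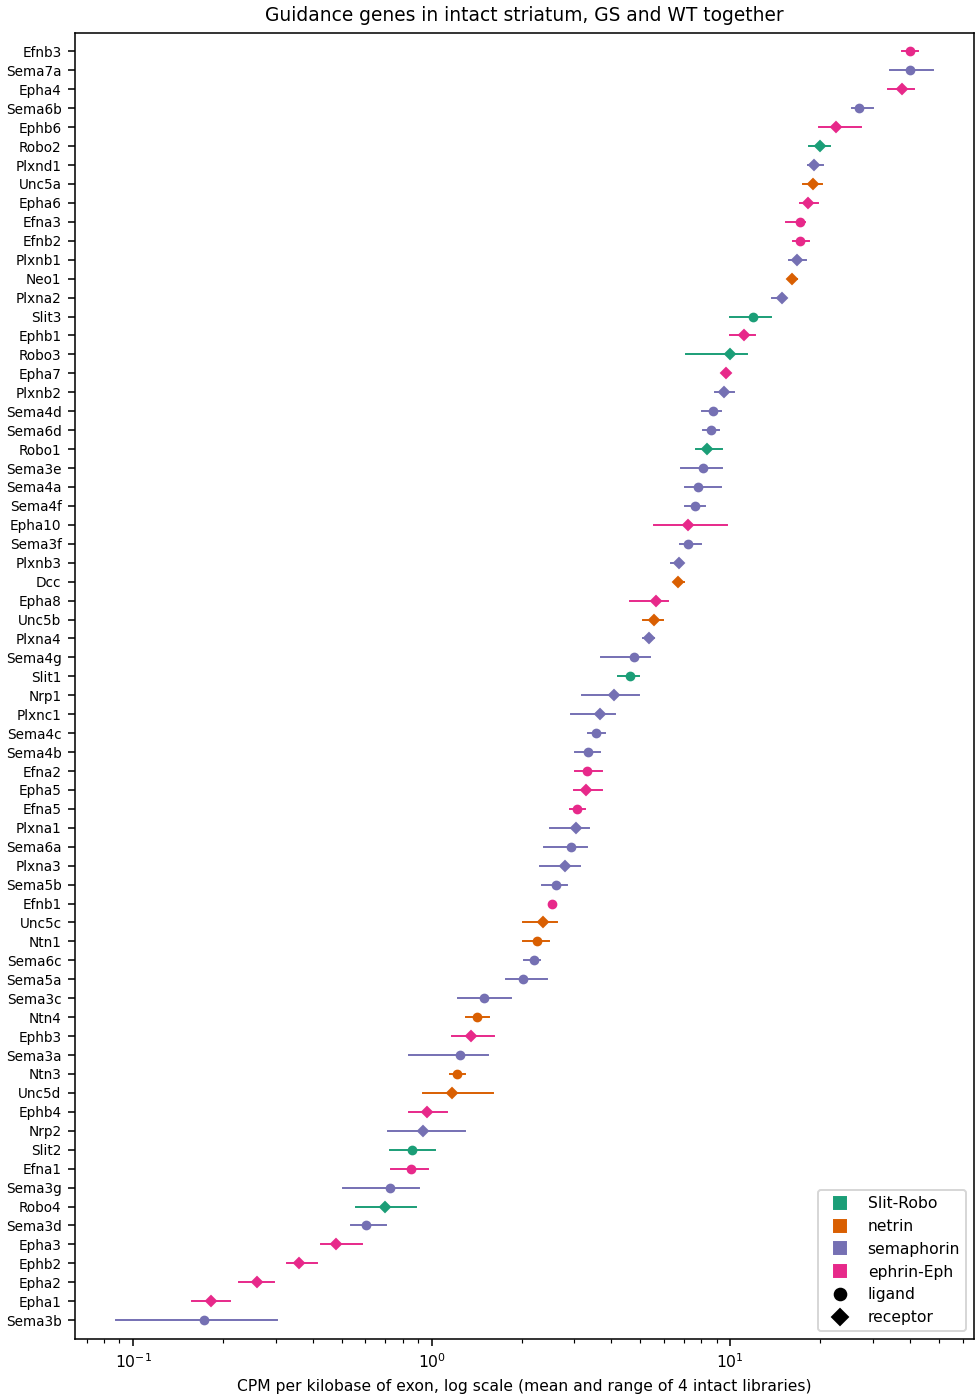
Level of each of the 68 guidance genes in intact striatum, in CPM per kilobase of exon on a log axis; points are means and lines the range of 4 intact libraries (2 GS and 2 WT), coloured by family, with circles for ligands and diamonds for receptors. Efnb3, Sema7a and Epha4 stand at the top, between 37.5 and 40.1 CPM per kilobase, and Sema3b, Epha1 and Epha2 at the bottom, between 0.173 and 0.261.

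After ATP, 38 of the 68 guidance genes were called at 3 d and 38 at 15 d, in both directions. With GS and WT averaged (4 injured against 4 intact libraries, edgeR, adjusted p under 0.05), 15 members were higher and 11 lower at 6 h (11.5 and 9.76% of all genes tested), 17 higher and 21 lower at 3 d (23.4 and 23.2%), and 20 higher and 18 lower at 15 d (23.6 and 23.8%). That is 38.2% of the members at 6 h, where 21.3% of all genes tested were called, 55.9% at 3 d against 46.6% of all genes, and 55.9% at 15 d against 47.3%. The 3 comparisons share the same intact libraries. Over the 3 times the members had a median log2 fold change of −0.06, −0.02 and 0.03, against −0.003, −0.02 and −0.02 for all genes tested. Libraries of the injured and intact groups did not overlap for 22 members at 6 h (24.3% of all genes), 29 at 3 d (38.4%) and 35 at 15 d (42.3%). The 6 h count was 14, with 6 higher and 8 lower, without the 3 WT libraries with most cortical marker RNA, 16 without WT 6 h replicate 2 and 15 without GS 6 h replicate 1. Calls lost at 6 h without those 3 WT libraries were those of Efna3, Efnb2, Efnb3, Epha4, Epha7, Ephb2, Ephb3, Nrp1, Plxna2, Sema3c, Sema3d and Sema3f (adjusted p = 0.0596 to 0.345). The log2 fold changes without them were −0.50 for Nrp1 and 0.53 for Sema3d, larger in size than with all libraries (−0.44 and 0.46). They were 0.24 for Efna3, 0.24 for Efnb2, 0.19 for Epha4, 0.20 for Epha7 and 0.23 for Sema3f, which each moved by 0.01 to 0.03. They were smaller in size by 0.04 to 0.14 for Efnb3 (0.11), Plxna2 (0.13), Sema3c (−0.40), Ephb3 (−0.37) and Ephb2 (0.29).

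Cortical markers themselves were lower at 3 d, with sums of 45 to 56.8 CPM, against 56.9 to 216 CPM intact, and 5 of 9 called lower and 1 higher, so a covariate of their level overlaps with the stage. With that covariate, the 3 d calls of Efnb1, Efnb3, Epha2, Epha3, Ephb2, Neo1, Ntn3, Robo2, Sema3b, Sema4a, Sema4d, Sema5b, Sema6c and Slit1 were lost (adjusted p = 0.0505 to 0.315). The log2 fold change became 0.76 for Epha2, 0.82 for Sema3b, −0.23 for Slit1 and −0.15 for Sema4a, against 1.12, 1.07, −0.34 and −0.24 in the fit without it. For the other 10 it moved by 0.01 to 0.10.

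Called at 1 or more times were 56 members, and 13 were called at all 3. The matching shares of all genes over the 3 times together were not counted, so neither count is read as particular to the members. At the single times 21.3, 46.6 and 47.3% of all genes tested were called, which is a different measure. Ephb2, Neo1, Sema3d and Slit2 were higher at every time, and Ephb6, Robo2 and Sema7a lower at every time. Nrp1, Plxnc1 and Sema6d were lower at 6 h and higher at 3 d and 15 d, and Efna3, Sema3f and Unc5a were higher at 6 h and lower at 3 d and 15 d. The 12 members called at no time were Efna1, Epha1, Epha6, Ephb4, Ntn1, Ntn4, Robo4, Sema3a, Sema3g, Sema4b, Sema4c and Unc5d. Fewer cells of a type and less RNA per cell cannot be told apart in these bulk samples.

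**Figure D2:**
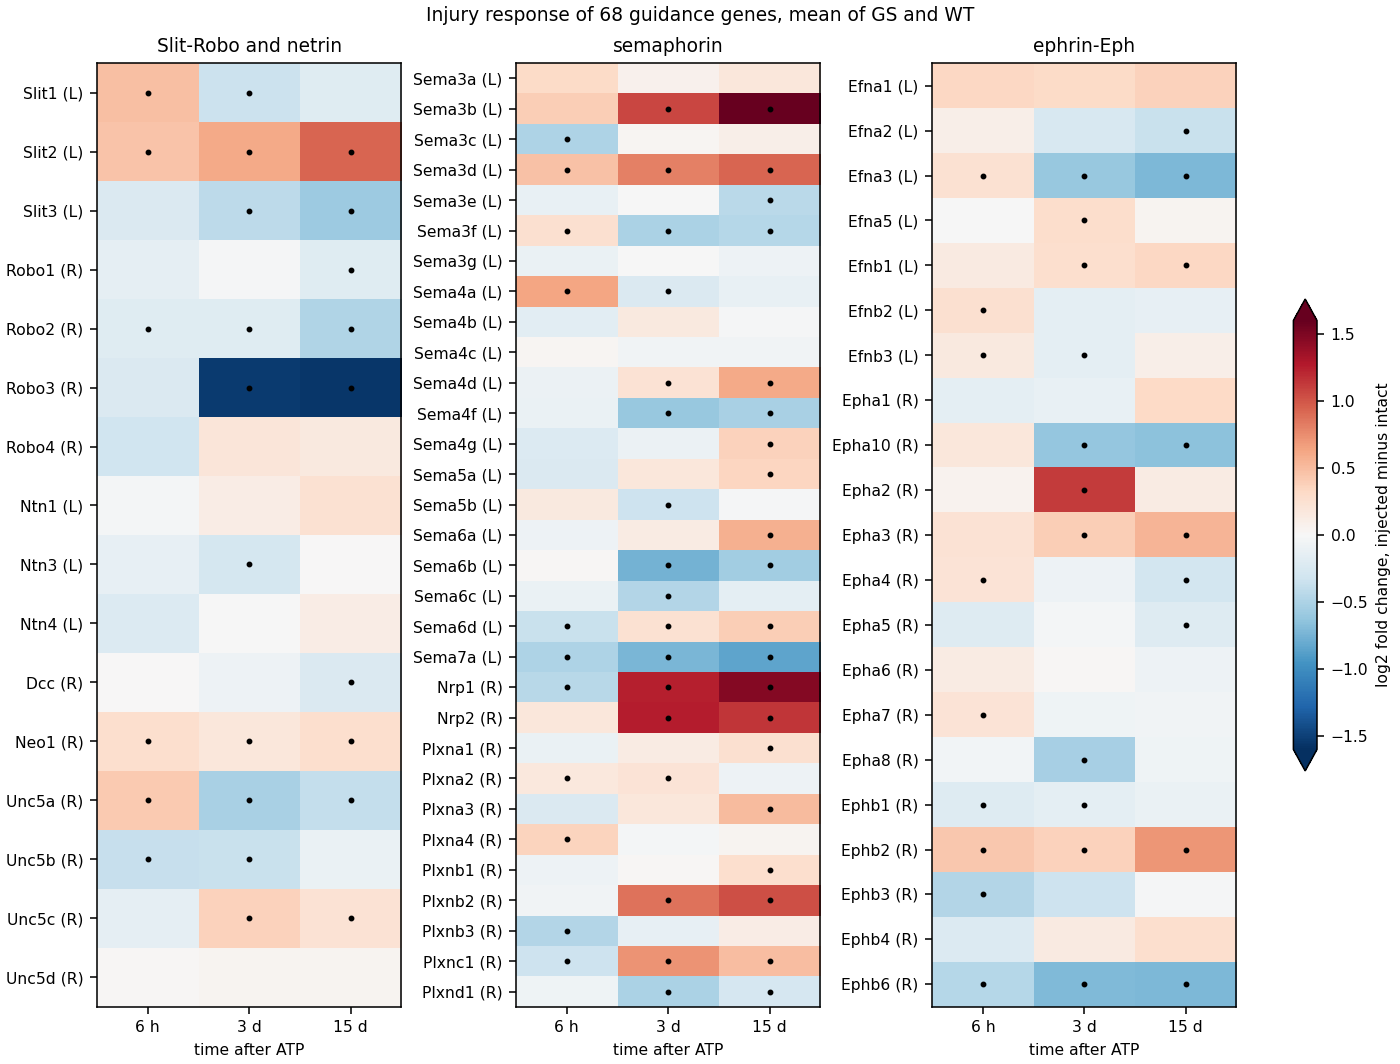
Log2 fold change of each guidance gene at 6 h, 3 d and 15 d after ATP against intact striatum, averaged over GS and WT (L, ligand; R, receptor; a dot marks an adjusted p under 0.05; red is higher and blue lower after ATP). Nrp1, Nrp2, Plxnb2 and Sema3b turn red from 3 d, Robo3 turns blue at 3 d and 15 d, and Sema4a, Slit1, Unc5a, Efna3 and Sema3f are among those red at 6 h and blue at 3 d.

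The semaphorin co-receptors Nrp1 and Nrp2 rose most among receptors. Nrp1, which binds class 3 semaphorins and VEGF, read 16.3 and 17.9 CPM in intact GS striatum, 10.2 and 10 at 6 h, 30.3 and 43.9 at 3 d, and 42.3 and 51 at 15 d. In WT striatum it read 11.5 and 13.3 CPM intact, 11.3 and 11.4 at 6 h, 27.3 and 36.4 at 3 d, and 28.8 and 40.8 at 15 d. Every 3 d and 15 d library was above every intact one, and every 6 h library was below. Nrp1 was 2.37-fold higher at 3 d (log2 fold change 1.24 ± 0.13 SE, edgeR adjusted p = 5.21e-06) and 2.77-fold higher at 15 d (1.47 ± 0.13, edgeR adjusted p = 1.12e-06). Its fall at 6 h (−0.44 ± 0.14, edgeR adjusted p = 0.0348) was called in only 1 of the 8 fits that each left out 1 library, the one without WT intact replicate 1. Adjusted p was up to 0.115 in the others, and it was not called without the 3 WT libraries with most cortical marker RNA (−0.50, adjusted p = 0.0761).

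Nrp2, a co-receptor of Sema3c and Sema3f, read 10.2 and 7.41 CPM in intact GS libraries, 12.2 and 13.6 at 6 h, 21.5 and 27.9 at 3 d, and 21.1 and 28.6 at 15 d. The WT libraries read 13.4 and 7.91 CPM intact, 9.19 and 9.64 at 6 h, 19.1 and 24.6 at 3 d, and 14.6 and 22.5 at 15 d. The 6 h and intact libraries overlapped, whereas all 3 d and 15 d libraries were higher than all intact ones. The log2 fold change at 3 d was 1.26 ± 0.18 and at 15 d 1.15 ± 0.18 (edgeR adjusted p = 6.14e-05 and 0.000126), and the 0.18 ± 0.18 of 6 h did not pass the test.

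Of the 9 plexins, 3 rose at 3 d and 5 at 15 d, when 23.4 and 23.6% of all genes tested were called higher. Plxnd1 fell at both times. Plxnb2, a receptor of class 4 semaphorins, averaged 115 CPM at 3 d and 128 CPM at 15 d, against 62.7 CPM in intact striatum (log2 fold change 0.87 ± 0.11 and 1.03 ± 0.11, edgeR adjusted p = 2.01e-05 and 4.09e-06). Plxnc1, the plexin that binds Sema7a, fell at 6 h by 0.34 on the log2 scale (SE 0.078, edgeR adjusted p = 0.00776) and rose by 0.72 ± 0.077 at 3 d and 0.49 ± 0.077 at 15 d. Plxnd1 averaged 93.4 CPM at 3 d and 110 CPM at 15 d, against 132 CPM in intact libraries (−0.50 ± 0.048 and −0.26 ± 0.048, edgeR adjusted p = 1.97e-06 and 0.000411). Plxna4, a partner of neuropilins, rose at 6 h alone (0.36 ± 0.065, edgeR adjusted p = 0.00164), and Plxnb3 fell at 6 h alone (−0.46 ± 0.083, edgeR adjusted p = 0.00163). Plxna1, Plxna3 and Plxnb1 were called at 15 d alone, by 0.26, 0.51 and 0.27, and the Plxna1 call did not hold without GS intact replicate 2 or WT 15 d replicate 2 (adjusted p = 0.0569 and 0.0533), or with choroid plexus markers as a covariate (0.19, adjusted p = 0.057).

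The 20 semaphorins moved in both directions: 3 rose and 3 fell at 6 h, 4 rose and 7 fell at 3 d, and 7 rose and 5 fell at 15 d. At these times 11.5, 23.4 and 23.6% of all genes tested were called higher and 9.76, 23.2 and 23.8% lower. Sema3b, a secreted class 3 semaphorin, had the largest rise of all members at 15 d. Its GS libraries read 1.13 and 0.325 CPM intact, 0.853 and 1.02 at 6 h, 1.31 and 2.12 at 3 d, and 2.98 and 4.58 at 15 d. Its WT libraries read 0.516 and 0.601 CPM intact, 0.75 and 0.758 at 6 h, 0.926 and 1.17 at 3 d, and 2.98 and 4.21 at 15 d. All 15 d libraries were above all others, and the 3 d libraries overlapped the intact ones through GS intact replicate 1, the library highest in choroid plexus markers. The rise was 5.76-fold at 15 d (log2 fold change 2.53 ± 0.30, edgeR adjusted p = 1.13e-05). At 3 d it was 1.07 ± 0.31 (edgeR adjusted p = 0.0112), a call lost without GS 3 d replicate 2 (adjusted p = 0.0542) and without the 3 WT libraries with most cortical marker RNA (1.02, adjusted p = 0.0582). RefSeq places Lsmem2 across part of Sema3b, and since strand use is not given, reads of the 2 genes cannot be told apart.

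Sema3d, another secreted semaphorin, averaged 6.13 CPM at 6 h, 7.87 at 3 d and 8.51 at 15 d, against 4.45 in intact striatum, and its libraries were above the intact ones at each time. Its log2 fold change was 0.81 ± 0.12 at 3 d and 0.94 ± 0.12 at 15 d (edgeR adjusted p = 8.19e-05 and 2.12e-05). At 6 h it was 0.46 ± 0.12, and that call was lost without WT intact replicate 2, GS intact replicate 2 or GS 6 h replicate 1 (adjusted p up to 0.0691). Sema3c fell at 6 h alone (−0.49 ± 0.12, edgeR adjusted p = 0.0127), with the call lost without WT intact replicate 1, WT 6 h replicate 2 or GS 6 h replicate 2 (adjusted p up to 0.0535). Sema3e, the ligand of Plxnd1, averaged 40.9 CPM at 15 d, against 55.5 CPM intact (−0.43 ± 0.099, edgeR adjusted p = 0.00242). Sema3f averaged 30 CPM at 6 h, 17.8 at 3 d and 18.4 at 15 d, against 25.2 CPM intact, so that it was higher at the first time and lower at the others. The log2 fold change of Sema3f was 0.25 ± 0.062 at 6 h (edgeR adjusted p = 0.0106, lost without GS intact replicate 2, adjusted p = 0.0595) and −0.51 ± 0.062 and −0.46 ± 0.062 at 3 d and 15 d (edgeR adjusted p = 1.61e-05 and 3.53e-05). Sema3a, the best studied growth cone repellent, was called at no time, at 0.31 ± 0.14, 0.07 ± 0.14 and 0.18 ± 0.14.

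Among transmembrane semaphorins, Sema4a had the largest rise of all members at 6 h. Its GS libraries read 24.7 and 24.2 CPM intact, 39.6 and 49.6 at 6 h, 23.3 and 20.1 at 3 d, and 24.2 and 22.9 at 15 d. Its WT libraries read 31.9 and 26.1 CPM intact, 38.1 and 38.3 at 6 h, 23.7 and 23.4 at 3 d, and 26.4 and 25 at 15 d. The 6 h libraries stood apart from all others (log2 fold change 0.63 ± 0.079, edgeR adjusted p = 0.000137). At 3 d the change was −0.24 ± 0.080 (edgeR adjusted p = 0.0245), a call lost without WT intact replicate 1, GS intact replicate 1, WT 3 d replicate 2 or GS 3 d replicate 2 (adjusted p = 0.134, 0.0631, 0.0568 and 0.0991). Sema4d, a ligand of plexin-B1 and plexin-B2 that oligodendrocytes make, averaged 63.1 CPM at 15 d, against 41.4 CPM in intact striatum (0.61 ± 0.082, edgeR adjusted p = 3.14e-05). Over the same libraries the summed level of 6 oligodendrocyte markers was 8116 to 9658 CPM at 15 d, against 6878 to 7223 CPM intact, and its part in the Sema4d rise was not tested.

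Sema6d, a ligand of plexin-A1, fell by 0.36 at 6 h on the log2 scale (SE 0.060, edgeR adjusted p = 0.00108) and rose by 0.25 ± 0.060 at 3 d and 0.40 ± 0.060 at 15 d. Sema6a and Sema4g rose at 15 d alone, by 0.57 ± 0.10 and 0.37 ± 0.078 (edgeR adjusted p = 0.000343 and 0.00129). Sema6b, among the highest semaphorins in intact striatum, averaged 63.5 CPM at 3 d and 72.8 CPM at 15 d, against 107 CPM intact (−0.76 ± 0.077 and −0.56 ± 0.077, edgeR adjusted p = 3.39e-06 and 4.18e-05). Sema4f also fell, with −0.60 ± 0.068 at 3 d and −0.52 ± 0.068 at 15 d (edgeR adjusted p = 7.88e-06 and 2.39e-05).

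Sema7a had the lowest adjusted p of the members at each time. In GS striatum it read 135 and 158 CPM intact, 95.4 and 99.6 at 6 h, 83.3 and 82.9 at 3 d, and 71.9 and 71.8 at 15 d. In WT striatum it read 122 and 113 CPM intact, 85.5 and 92.8 at 6 h, 71.8 and 79 at 3 d, and 73.9 and 75.8 at 15 d. Every injured library was below every intact one at each time, with log2 fold changes of −0.49 ± 0.055, −0.73 ± 0.055 and −0.84 ± 0.055 (edgeR adjusted p = 5.86e-05, 3.23e-07 and 9.57e-08). Its receptor Plxnc1 was lower at 6 h and higher at 3 d and 15 d (log2 fold changes −0.34, 0.72 and 0.49).

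**Figure D3:**
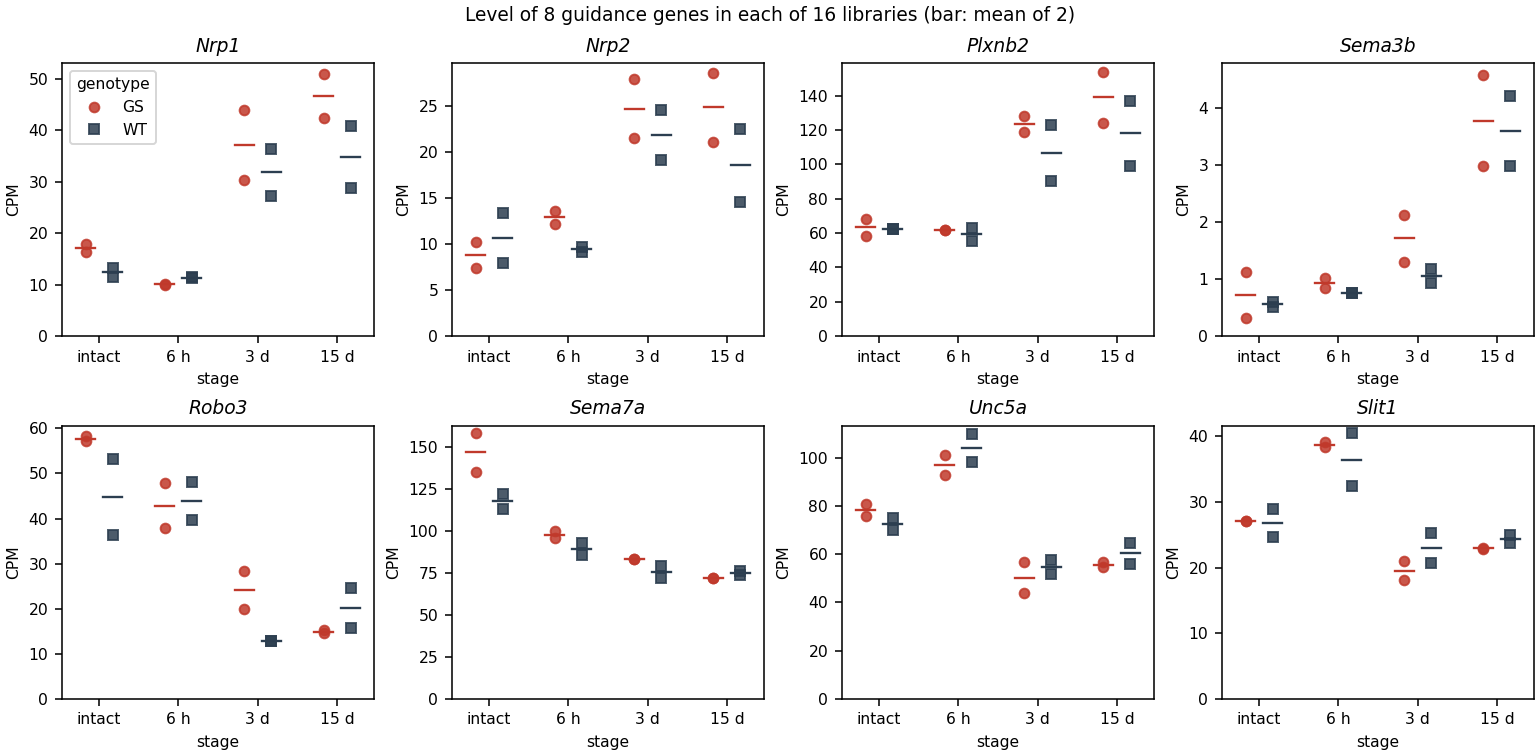
Level in CPM of 8 guidance genes in each library, by stage, with red circles for GS and dark squares for WT and a bar for the mean of 2 libraries. Nrp1, Nrp2, Plxnb2 and Sema3b are higher from 3 d on, Robo3 and Sema7a are lower from 3 d and from 6 h, and Unc5a and Slit1 are highest at 6 h.

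In the Slit-Robo family the 3 Slits took different courses and no Robo receptor rose. Slit1 read 27.1 and 27.1 CPM in intact GS striatum, 39.1 and 38.4 at 6 h, 21 and 18.1 at 3 d, and 22.9 and 23 at 15 d. The WT libraries read 28.9 and 24.7 CPM intact, 32.4 and 40.5 at 6 h, 25.3 and 20.7 at 3 d, and 23.7 and 25 at 15 d. The 6 h libraries were above all intact ones (log2 fold change 0.48 ± 0.084, edgeR adjusted p = 0.00136), and at 3 d it was lower, with libraries that overlapped (−0.34 ± 0.085, edgeR adjusted p = 0.00407), a call lost with the cortical covariate (−0.23, adjusted p = 0.125). Slit2 rose at each time, by 0.45 ± 0.10, 0.61 ± 0.10 and 0.93 ± 0.10 (edgeR adjusted p = 0.00636, 0.000204 and 4.84e-06), and averaged 16.4 CPM at 15 d, against 8.61 CPM intact. Slit3 averaged 46.2 CPM at 3 d and 41.3 CPM at 15 d, against 62.1 CPM intact (−0.42 ± 0.089 and −0.58 ± 0.089, edgeR adjusted p = 0.00134 and 1e-04).

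Robo3, a receptor known for its part in commissural axon crossing, had the largest fall of any member at 3 d and 15 d. GS libraries read 57.1 and 58.3 CPM intact, 37.8 and 47.8 at 6 h, 20 and 28.4 at 3 d, and 15.3 and 14.5 at 15 d. WT libraries read 53.1 and 36.3 CPM intact, 48 and 39.6 at 6 h, 12.9 and 12.9 at 3 d, and 24.5 and 15.7 at 15 d. The 6 h libraries overlapped the intact ones, and no 3 d or 15 d library reached an intact one. The level was 0.347-fold at 3 d (log2 fold change −1.53 ± 0.15, edgeR adjusted p = 2.49e-06) and 0.341-fold at 15 d (−1.55 ± 0.15, edgeR adjusted p = 1.86e-06). Robo2, the most abundant Robo per kilobase, fell at each time, with log2 fold changes of −0.20 at 6 h, −0.20 at 3 d and −0.49 ± 0.052 at 15 d (edgeR adjusted p = 4.58e-06 at 15 d). The Robo2 call at 6 h was lost without WT intact replicate 2, GS intact replicate 2, WT 6 h replicate 2 or GS 6 h replicate 1 (adjusted p up to 0.0665), and the 3 d call with cortical marker level as a covariate (−0.19, adjusted p = 0.0637). Robo1 was lower at 15 d alone (−0.20 ± 0.068, edgeR adjusted p = 0.0258), a call lost without WT intact replicate 2, GS intact replicate 1, WT 15 d replicate 2 or either GS 15 d replicate (adjusted p up to 0.152) and with cortical markers as a covariate (−0.19, adjusted p = 0.0636). Robo4, an endothelial Robo, was called at no time.

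None of the 3 netrins rose, and their receptors diverged. Ntn1, the classic axon attractant, was called at no time, at −0.04 ± 0.099, 0.12 ± 0.098 and 0.24 ± 0.098. Ntn3 was lower at 3 d alone (−0.28 ± 0.096, edgeR adjusted p = 0.0267), which was lost without WT intact replicate 2, GS intact replicate 1, WT 3 d replicate 1 or GS 3 d replicate 2 (adjusted p up to 0.0993), and RefSeq places Tbc1d24 across it. Unc5a, a repellent netrin receptor of neurons, read 81 and 75.9 CPM in intact GS striatum, 93.1 and 101 at 6 h, 56.7 and 43.8 at 3 d, and 54.5 and 56.8 at 15 d. The WT libraries read 70 and 74.9 CPM intact, 98.4 and 110 at 6 h, 57.5 and 51.7 at 3 d, and 56 and 64.7 at 15 d. It was above every intact library at 6 h and below every one later (log2 fold change 0.41 ± 0.076, −0.52 ± 0.077 and −0.38 ± 0.077, edgeR adjusted p = 0.00192, 7.53e-05 and 0.000963). RefSeq places Hk3 and Gm31313 in positions that overlap Unc5a, and strand use is not given.

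Unc5c rose by 0.37 ± 0.069 at 3 d (edgeR adjusted p = 0.000491), when Unc5b, an endothelial and neuronal receptor, fell (−0.35 ± 0.1, edgeR adjusted p = 0.00978). Unc5b was also lower at 6 h (−0.37 ± 0.1, edgeR adjusted p = 0.0177), a call lost without WT intact replicate 2, GS intact replicate 1, WT 6 h replicate 2 or GS 6 h replicate 1 (adjusted p up to 0.0764). Neo1, which also binds repulsive guidance molecules, rose at each time with small errors, by 0.27 ± 0.048, 0.19 ± 0.048 and 0.27 ± 0.048 (edgeR adjusted p = 0.00153, 0.00573 and 0.00043), and averaged 143 CPM at 15 d, against 119 CPM intact. Its 3 d call was lost with cortical marker level as a covariate, where the value was 0.17 (adjusted p = 0.064). Dcc was lower at 15 d alone, at 58.7 CPM against 69 CPM intact (−0.23 ± 0.053, edgeR adjusted p = 0.00218).

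In the ephrin-Eph family, of 21 members, 6 rose and 3 fell at 6 h, 5 rose and 6 fell at 3 d, and 3 rose and 6 fell at 15 d. Over all genes tested, 21.3, 46.6 and 47.3% were called at these times in either direction. Epha2, a receptor best known from epithelial cells, had the largest rise of the family at 3 d and was called at neither other time. Its GS libraries read 1.16 and 1.03 CPM intact, 0.951 and 1.04 at 6 h, 2.4 and 2.25 at 3 d, and 1 and 1.08 at 15 d. Its WT libraries read 1.02 and 0.883 CPM intact, 1.24 and 0.993 at 6 h, 2.04 and 2.2 at 3 d, and 0.62 and 1.79 at 15 d. The 3 d libraries were above all others (log2 fold change 1.12 ± 0.24, edgeR adjusted p = 0.00176), but the call was lost with cortical marker level as a covariate (0.76, edgeR adjusted p = 0.0909). Ephb2, an ephrin-B receptor, rose by 0.71 ± 0.14 at 15 d (edgeR adjusted p = 0.000971). Its calls at 6 h (0.43 ± 0.14, edgeR adjusted p = 0.0468) and 3 d (0.37 ± 0.14, edgeR adjusted p = 0.048) each held in only 2 of 8 fits that left out 1 library. The 6 h call held without GS intact replicate 1 or WT 6 h replicate 1, and the 3 d call without GS intact replicate 1 or GS 3 d replicate 1. Adjusted p otherwise reached 0.211 at 6 h and 0.162 at 3 d. Epha3 rose by 0.54 ± 0.13 at 15 d (edgeR adjusted p = 0.00334).

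Ephb6 fell at each time: its GS libraries read 86.2 and 103 CPM intact, 62.1 and 62.6 at 6 h, 55.9 and 49.1 at 3 d, and 48.3 and 49 at 15 d. Its WT libraries read 77.1 and 74.6 CPM intact, 60.2 and 62.5 at 6 h, 48.3 and 54.3 at 3 d, and 54.5 and 55 at 15 d. No injured library reached an intact one, and the log2 fold changes were −0.45 ± 0.061, −0.71 ± 0.061 and −0.72 ± 0.061 (edgeR adjusted p = 0.000226, 8.48e-07 and 6.63e-07). Epha10, another Eph receptor without kinase activity, fell at 3 d and 15 d (−0.61 ± 0.11 and −0.66 ± 0.11, edgeR adjusted p = 0.000498 and 0.000277). Epha8 was lower at 3 d alone (−0.54 ± 0.087, edgeR adjusted p = 0.000175). Epha4 averaged 275 CPM at 6 h and 192 CPM at 15 d, against 237 CPM intact (0.22 ± 0.052 and −0.30 ± 0.052, edgeR adjusted p = 0.00938 and 0.00029), and its 6 h call was lost without the 3 WT libraries with most cortical marker RNA (0.19, adjusted p = 0.0975).

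The ligand Efna3 was the ephrin with the largest change. GS libraries read 40.8 and 36.5 CPM intact, 47.2 and 45 at 6 h, 26.7 and 20.2 at 3 d, and 25.6 and 23.1 at 15 d. WT libraries read 42 and 42 CPM intact, 48.9 and 50.5 at 6 h, 29.3 and 29.9 at 3 d, and 25.6 and 23.2 at 15 d. All 3 d and 15 d libraries were below all intact ones (log2 fold change −0.61 ± 0.076 and −0.72 ± 0.077, edgeR adjusted p = 1.81e-05 and 3.82e-06). The higher value at 6 h (0.25 ± 0.075, edgeR adjusted p = 0.0292) was called in only 1 of 8 fits that each left out 1 library, the one without GS intact replicate 1. Adjusted p was up to 0.12 in the others. The ephrin-B ligands Efnb2 and Efnb3 were called higher at 6 h, at 0.25 ± 0.065 and 0.16 ± 0.053. The Efnb3 call was lost without any 1 of the 8 libraries (adjusted p up to 0.181), and the Efnb2 call without GS intact replicate 2 or GS 6 h replicate 1 (adjusted p up to 0.0754).

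Efnb1, Ephb1 and Ephb3 complete the ephrin-B pairs. Efnb1 was called higher at 3 d and 15 d (0.27 ± 0.098 and 0.33 ± 0.099, edgeR adjusted p = 0.0356 and 0.0136). The 15 d call was lost without WT 15 d replicate 2 (adjusted p = 0.0833) and the 3 d call without most single libraries (adjusted p up to 0.102). Ephb1 fell at 6 h and 3 d (−0.21 ± 0.043 and −0.16 ± 0.043, edgeR adjusted p = 0.00407 and 0.00842). Ephb3 fell at 6 h alone (−0.47 ± 0.14, edgeR adjusted p = 0.0256), a call that 6 of the 8 fits without 1 library did not make (adjusted p up to 0.123).

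Values of known ligand-receptor pairs are set side by side here. At 15 d Sema3e and Plxnd1 were both lower, at −0.43 ± 0.099 and −0.26 ± 0.048, and Sema4d, Plxnb1 and Plxnb2 were all higher, at 0.61 ± 0.082, 0.27 ± 0.063 and 1.03 ± 0.11. Slit2 was higher at 15 d while Robo1 and Robo2 were lower. Sema3a was not called at 15 d and Nrp1 was higher, with Plxna4 at 0.04 ± 0.065. Efna5, a lipid-anchored ephrin, was higher at 3 d alone (0.28 ± 0.080, edgeR adjusted p = 0.0115), while its receptors Epha4, Epha5 and Epha7 were called at 3 d in neither direction.

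Between 3 d and 15 d, 11 members rose and 5 fell (6.76 and 7.07% of all genes tested), which is 23.5% of the members against 13.8% of all genes. Sema3b rose further, by 1.46 ± 0.28 on the log2 scale (3.69 CPM at 15 d and 1.38 CPM at 3 d, edgeR adjusted p = 0.00503), and so did Sema4d (0.38 ± 0.081, edgeR adjusted p = 0.00869) and Sema4g (0.46 ± 0.078, edgeR adjusted p = 0.0023). Epha8 rose by 0.46 ± 0.087 and averaged 25.3 CPM at 15 d, against 18.3 CPM at 3 d and 26.7 CPM in intact striatum. Epha2 averaged 1.12 CPM at 15 d, against 2.22 CPM at 3 d (−0.99 ± 0.24, edgeR adjusted p = 0.0161), with the call lost without GS 15 d replicate 1 or GS 15 d replicate 2 (adjusted p up to 0.0568). Robo2 fell (−0.29 ± 0.052, edgeR adjusted p = 0.0034). Nrp1, Nrp2, Plxnb2 and Robo3 were not called, with differences of 0.23 ± 0.13, −0.11 ± 0.17, 0.16 ± 0.11 and −0.03 ± 0.15. The count of 16 was 9 without WT 15 d replicate 2, the library of that time with most choroid plexus marker RNA, and 9 without GS 15 d replicate 2.

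Markers of several cell types moved over the same libraries. The sum of 7 microglia markers was 269 to 303 CPM at 6 h, when 4 were called lower, 702 to 1341 at 3 d and 838 to 1665 at 15 d, against 385 to 407 CPM intact. Astrocyte markers, 5 measured, summed to 2104 to 2772 CPM at 3 d and 2067 to 2785 CPM at 15 d, against 971 to 1041 CPM intact. The 4 monocyte and macrophage markers summed to 110 to 318 CPM at 3 d and 178 to 613 CPM at 15 d, against 16 to 18 CPM intact, and 6 fibroblast and meningeal markers to 69.7 to 104 CPM at 15 d, against 34.8 to 62.5 CPM. Endothelial markers, 6 measured, summed to 52.5 to 66.2 CPM at 6 h, when 3 of 6 were called lower and 0 higher, 92.2 to 137 CPM at 3 d and 83.5 to 109 CPM at 15 d, against 65.2 to 96.4 CPM intact. Those of striatal projection neurons summed to 8489 to 9222 CPM at 6 h, 6962 to 8484 CPM at 3 d and 6437 to 7047 CPM at 15 d, against 8356 to 11012 CPM intact. Of these 11 markers, 3 were called lower and 1 higher at 6 h, 6 lower and 1 higher at 3 d, and 10 lower and 1 higher at 15 d. The 6 h sums lay within the intact range of 8356 to 11012 CPM. Sema7a and Ephb6 were lower at 6 h (−0.49 and −0.45), and the part of projection neurons in those falls was not tested. The 5 ependyma markers were called higher at all 3 times, with sums of 13.5 to 26.1, 21 to 46.9 and 47.2 to 62.9 CPM, against 5.33 to 11.2 CPM intact. So were the 4 markers of cycling cells, with 9.51 to 17.3, 45.9 to 129 and 27.2 to 36 CPM, against 1.82 to 4.92 CPM. The 4 haemoglobin genes of red blood cells were called higher at 6 h alone, with 27.7 to 58.9 CPM, against 3.34 to 5.82 CPM intact. Markers of oligodendrocyte precursors and of pericytes and smooth muscle were lower at 6 h for 3 of 4 and 4 of 6. At 3 d and 15 d the sums of microglia, astrocytes, monocytes and macrophages, ependyma and cycling cells were higher. These higher sums moved with the rises of Nrp1, Nrp2, Plxnb2, Plxnc1 and Sema3b. The mostly lower sums of striatal projection neurons moved with the falls of Robo3, Sema7a, Ephb6 and Unc5a. At 6 h the higher sums moved with the rises of Sema4a, Slit1 and Unc5a, and the lower sums of microglia, endothelium and pericytes with the falls of Nrp1, Plxnc1, Unc5b and Sema6d. Their part in those results was not tested.

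**Figure D4:**
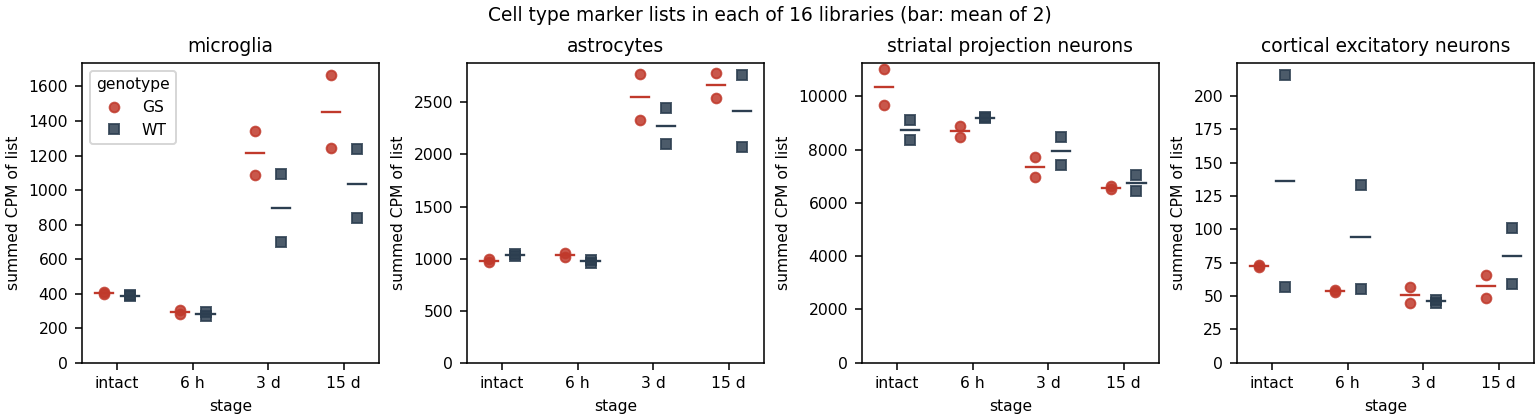
Summed CPM of marker lists for microglia, astrocytes, striatal projection neurons and cortical excitatory neurons in each library, by stage, with red circles for GS and dark squares for WT and a bar for the mean of 2. Microglia and astrocyte sums are highest at 3 d and 15 d, the striatal projection neuron sum is lowest at 15 d, and 3 WT libraries stand above the others of their stage in cortical markers.

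Genes that act beside these families were described from 2 lists. Of all genes tested, 21.3% were called at 6 h, 46.6% at 3 d and 47.3% at 15 d. Of 46 signalling partners, which carry guidance signals to the cytoskeleton, 7 rose and 11 fell at 6 h, 16 rose and 12 fell at 3 d, and 17 rose and 12 fell at 15 d, with medians of −0.01, 0.09 and 0.07 on the log2 scale. Fes, a kinase of semaphorin signalling that is abundant in myeloid cells, had log2 fold changes of −0.72, 1.48 and 1.69, and Ngef, the ephexin that acts behind EphA receptors, of −0.53, −0.46 and −0.64, all called. Rnd1, a GTPase that binds plexins, was higher at 6 h (0.44) and lower at 3 d (−0.83). Of 34 other guidance cues and co-receptors, 6 rose and 10 fell at 6 h, 10 rose and 13 fell at 3 d, and 10 rose and 14 fell at 15 d. Met, a receptor kinase that associates with class B plexins, rose at each time (1.05, 3.48 and 3.66). Draxin, which binds netrin and Dcc, rose at each time (1.49, 2.03 and 2.73), and Rtn4r, the Nogo receptor, fell at each (−1.15, −1.70 and −1.18). Genes of the 2 lists were not followed in the alternative fits, and the levels of those named are not given here.

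Within single genotypes, where 2 injured stand against 2 intact libraries, GS striatum had 16 members called at 6 h, 32 at 3 d and 34 at 15 d, and WT striatum had 10, 24 and 25. In all genes tested the percentages called were 13.8, 35.1 and 37.1 in GS and 4.09, 27.4 and 25.4 in WT. A larger count in one genotype is not a test of a difference. Nrp1 was higher by 1.12 ± 0.19 in GS and 1.36 ± 0.19 in WT at 3 d (edgeR adjusted p = 0.00041 and 2e-04), and Sema7a was lower at 15 d, at −1.03 ± 0.078 in GS and −0.65 ± 0.078 in WT (edgeR adjusted p = 1.34e-06 and 7.36e-05). Robo3 was lower at 15 d, at −1.96 ± 0.22 in GS and −1.15 ± 0.21 in WT (edgeR adjusted p = 1.47e-05 and 0.0014). The GS counts ran from 4 to 10 at 6 h when 1 library was left out (10 without GS intact replicate 1, 4 without GS intact replicate 2, 6 without either 6 h library), and the 3 d count was 16 without GS 3 d replicate 2. The WT count at 6 h was 0 to 2 without any 1 of its 4 libraries, 0 without the 3 libraries highest in cortical markers and 17 in DESeq2. The fit without those 3 sets 1 WT intact against 1 WT 6 h library, each assumed to vary like the other groups. The WT count was 15 at 3 d without WT intact replicate 2 and 15 at 15 d without WT 15 d replicate 2, and 13 at 15 d without the cortical libraries.

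No member passed the test between GS and WT, averaged over the 4 stages (8 against 8 libraries), where edgeR called 0.0106% of all genes tested and 7 members had an unadjusted p under 0.05 (9.87% of all genes). DESeq2 also called 0. The lowest p belonged to Ephb1, at 69 CPM in GS and 64 CPM in WT (0.11 ± 0.030, edgeR adjusted p = 0.366) and Sema7a, at 99.8 and 89.2 CPM (0.13 ± 0.039, edgeR adjusted p = 0.366). The GS and WT libraries overlapped for all 68 members and did not for 0.0159% of all genes. The 95% interval of the difference was −0.04 to 0.11 for Neo1 and −0.08 to 0.09 for Robo2 on the log2 scale, and −0.09 to 0.82 for Sema3b, the widest.

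**Figure D5:**
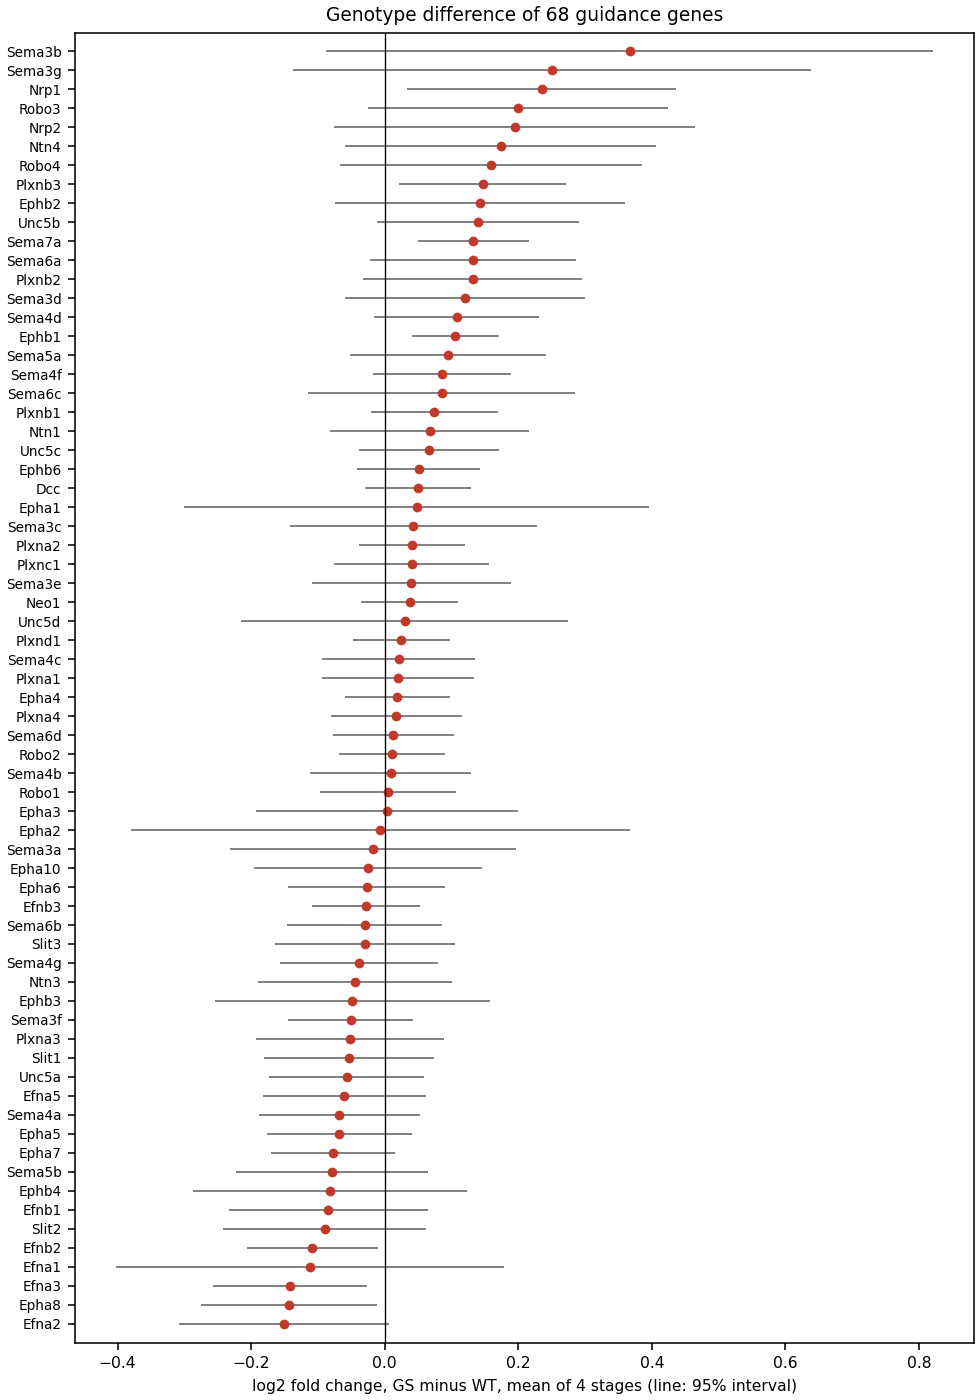
Log2 fold change of each guidance gene in GS against WT, averaged over 4 stages, as points with 95% intervals from the edgeR fit (8 GS and 8 WT libraries). No member was called, and the interval is widest for Sema3b.

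At single stages edgeR called 0 members in intact striatum (0.0159% of all genes), at 6 h (0.00532%), at 3 d (0.0106%) and at 15 d (0.00532%). Unadjusted p was under 0.05 for 12, 4, 9 and 2 members (10.9, 6.83, 8.25 and 4.86% of all genes), and DESeq2 called 1 member in intact striatum and 0 at each other stage, with no adjusted p for 4 members in intact striatum and 8 at 3 d. That member was Sema7a, with 135 and 158 CPM in intact GS libraries and 122 and 113 CPM in intact WT libraries (0.32 ± 0.077, edgeR adjusted p = 0.219; DESeq2 adjusted p = 0.0204). Ephb6 was next, at 86.2 and 103 CPM in GS and 77.1 and 74.6 CPM in WT (0.32 ± 0.085, edgeR adjusted p = 0.25). At 3 d Robo3 read 20 and 28.4 CPM in GS and 12.9 and 12.9 CPM in WT (0.91 ± 0.22, edgeR adjusted p = 0.55). Plxnb3 at 3 d read 41.9 and 44.7 CPM in GS and 29.1 and 35.4 CPM in WT (0.42 ± 0.12, edgeR adjusted p = 0.55). At 6 h Epha10 read 23 and 27.8 CPM in GS and 17.7 and 15.9 CPM in WT (0.60 ± 0.16, edgeR adjusted p = 0.402). Epha8 at 6 h differed by −0.32 ± 0.12 (edgeR adjusted p = 0.638). At 15 d Plxnc1 differed by 0.28 ± 0.11 and Nrp1 by 0.42 ± 0.18 (edgeR adjusted p = 0.969 for both). At 3 d leaving out GS 3 d replicate 1 gave 1 called member, lower in GS.

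The response of GS minus that of WT passed the edgeR test for 0 members at 6 h (0.0106% of all genes), 0 at 3 d and 0 at 15 d (0% of all genes at both). Unadjusted p was under 0.05 for 12, 15 and 7 members (9.42, 9.92 and 5.46% of all genes). DESeq2 called 0, 1 and 0 members, after its own filter on low means had left 27, 67 and 59 of them without an adjusted p. At 6 h the lowest p was that of Epha10 (1.05 ± 0.22, edgeR adjusted p = 0.195), which averaged 25.4 CPM at 6 h against 15.6 CPM intact in GS, and 16.8 CPM against 21.3 CPM in WT. Its largest intact value, 24.9 CPM, was that of WT intact replicate 1, the library highest in cortical markers. The Epha10 difference was 0.78 without that library, 0.71 without the 3 WT libraries and 1.07 with the cortical covariate (edgeR adjusted p = 0.582, 0.705 and 0.191). Sema4a followed (0.47 ± 0.16, edgeR adjusted p = 0.39). At 3 d it was that of Epha4 (−0.32 ± 0.10, edgeR adjusted p = 0.439; DESeq2 adjusted p = 0.0428), followed by Sema3f (−0.39 ± 0.13, edgeR adjusted p = 0.439). At 15 d Ephb6 (−0.49 ± 0.12) and Sema7a (−0.38 ± 0.11) had the lowest p (edgeR adjusted p = 0.873 for both). Both genes read higher in each intact GS library than in either intact WT library. With 2 libraries a side, GS and WT did not overlap in intact striatum for 33 of the 68 members (48.5%). The share of all genes is not given here, and the part of the intact values in these differences was not tested.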

How the data were processed

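Total RNA of striatum was sequenced with a TruSeq kit, per the labels' protocols, as 16 libraries, 2 in each of 8 groups. The authors deposited whole-number read counts for 19457 genes, raw per the file headers. Every gene has at least 1 count in every library, so genes at 0 are not analysed here. The submitters' processing notes name FastQC 0.11.7 and build mm10. Aligner, counter and strand setting: not given in the sources used here. RefSeq places another gene across 36 members. The columns named NT were read as WT because GS and WT are the labels' only genotypes.

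The counts were fitted in edgeR 4.0.16 under R 4.3.3. After filterByExpr by group, 18813 genes remained. TMM factors ran from 0.947 to 1.03, and all libraries entered 1 quasi-likelihood fit with a mean for each group (common biological coefficient of variation 10.1%, with 8 degrees of freedom for the residual). The 18 comparisons were adjusted by Benjamini-Hochberg over all genes tested, at 0.05. A standard error is the size of the log2 fold change over the root of its F statistic, so it and the 95% interval are approximate. Replicates differed beyond counting noise, so the spread between samples limits precision more than depth does. A CPM average is the mean over the libraries of the group or stage named.

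The members, the marker and partner lists and the ligand-receptor pairs were chosen with earlier results of these data known. By rule, up to 8 called members in each direction with at least 1 CPM on average were named at each time, with the pairs, and for genotype the 2 members with the lowest p. Other members were named after their values were seen. Alternatives were RLE size factors, no filter, DESeq2 1.42.0, a replicate block, leaving out the 3 WT libraries with most cortical marker RNA, cortical markers as a covariate, and each library left out. A choroid plexus covariate was added after seeing the data. The code was tested on simulated data.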

Additional observations from a re-analysis of the deposited data

How the results depend on the processing

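No called value of a member changed direction under any alternative, and RLE scaling moved the median of all genes by under 0.01 on the log2 scale. Of 197 called values of named members, 195 kept their call with RLE size factors, 189 without the filter, 197 in DESeq2, 163 without the 3 WT libraries with most cortical marker RNA, 166 with cortical markers as a covariate and 183 with choroid plexus markers as a covariate. Without those 3 WT libraries the members called were 14 at 6 h, 0 at 6 h in WT and 13 at 15 d in WT, the WT comparisons then resting on 1 library against 1 with the spread of the other groups. DESeq2 called 17 members at 6 h in WT, 1 between GS and WT in intact striatum and 1 for the difference in response at 3 d, where it gave 67 members no adjusted p. The cause of these shifts was not tested. The share of all genes called in each alternative fit is not given here. From the member counts alone, a loss of calls among the members cannot be told apart from a loss over all genes.

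With each library left out in turn, members called ran from 15 to 22 at 6 h, 31 to 39 at 3 d, 33 to 38 at 15 d and 9 to 22 for 15 d against 3 d. In GS they ran from 4 to 10 at 6 h, 16 to 31 at 3 d and 27 to 32 at 15 d, and in WT from 0 to 2, 15 to 20 and 15 to 28. Between GS and WT they ran from 0 to 1 at 3 d and were 0 in the other comparisons of genotype. Called under every alternative were 12 of 26 members at 6 h, 24 of 38 at 3 d, 32 of 38 at 15 d and 8 of 16 between 3 d and 15 d.

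With a replicate block the members called were 27 at 6 h, 39 at 3 d, 38 at 15 d and 16 for 15 d against 3 d. Replicate numbers did not pair the samples: over 28 pairs of groups the correlation of their deviations was −0.0991 to 0.174, with 3 above 0.1. Depth limits Epha1, Epha2 and Sema3b most, the members with the fewest reads.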
